A study of Mus musculus with 12 samples.

Results

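Pramel6, Pramel7, Pramel18 and Pramel19 are 4 mouse genes of the PRAME family, taken by symbol from a table of 20529 genes. They were proposed with measured values of these samples known, and earlier results had placed Pramel18 and Pramel19 among the largest falls in Trim71-/- cells. The levels and fold changes of the 4 genes are therefore given as a description, without p-values. RNA came from embryonic stem cells of 129S6/SvEvTac mice grown on gelatin in serum and LIF. All cells carried the reporter GFP_5xT71BS and a stable FLAG-Cas9 construct with blasticidin resistance, so every control carried them too. The 4 groups of 3 wells were control cells with Cas9, Trim71-/- cells with Cas9, control cells overexpressing Tnrc6a, and Trim71-/- cells overexpressing Tnrc6a. Libraries were stranded preparations of total RNA. The series title names the meeting of separate RNA-silencing routes on GW182/Tnrc6 proteins as its theme.

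PRAME proteins are built from leucine-rich repeats, and several act as the substrate-binding part of a cullin-2 ubiquitin ligase. The family has expanded greatly in rodents, in tandem clusters expressed mainly in germ cells and early embryos. PRAMEL7 is known from the inner cell mass and from naive stem cells, where it directs UHRF1, a factor needed to maintain DNA methylation, to degradation, and Pramel6 and Pramel7 have been described as genes acting downstream of LIF and STAT3. Other members of the family are switched on in the small fraction of stem cell cultures that resembles the 2-cell embryo, together with the Zscan4 genes. A specific role of Pramel18 or Pramel19 is not stated here.

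The 4 genes form 2 neighbouring pairs on GRCm38. Pramel7 lies at chr2:87489087-87497093 on the minus strand and Pramel6 at chr2:87506565-87510872 on the plus strand, with 9471 bases between them. Pramel18 (named Gm12800 in GENCODE M21) lies at chr4:101909121-101911908 and Pramel19 (Gm12794) at chr4:101940407-101943183, both on the plus strand and 28498 bases apart. All are annotated as protein-coding, and no annotated gene overlaps any of them. The pairs differ in how alike their members are, and the start of the coding sequence shows it. The first 30 coding bases of each gene from its GENCODE M21 transcript are given below, with the start codon in capitals.
Pramel6: ATGagtgttgactccctacccaccctcttt
Pramel7: ATGgtcagtgccccacccacactccaggat
Pramel18: ATGagcacctacaaccctcccacactcctg
Pramel19: ATGagcacctacaaccctcccacactcctg

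Pramel18 and Pramel19 had the same 30 bases. Over the whole coding sequence they were 96.6% identical, with 47 substituted and 3 gapped positions among 1452, and their longest shared run was 597 bases. Pramel6 and Pramel7 were 57.4% identical, and the other pairs among the 4 genes were 59.0% to 59.6% identical. The 30 coding bases at which Pramel18 and Pramel19 differed most are shown next, since only such stretches can tell reads of the copies apart. Capitals mark the 7 bases that differ.
Pramel18, coding bases 381 to 410: GAaagggaGaaaggagcAaatttcGaaAcG
Pramel19, coding bases 378 to 407: TGaagggaTaaaggagcCaatttcAaaGcA

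Of all 50-base windows of the Pramel18 transcript, 45.7% were found in another annotated gene, and of the Pramel19 transcript 47.3%. Both shared windows with each other, with Pramel17 and with Gm12789. In Pramel6 no window of that length was shared, and in Pramel7 0.442% were, all with Gm5949. Nothing read here states the read length, the strand setting or the handling of reads that match several places. The split of reads between Pramel18 and Pramel19 is therefore uncertain, and their sum is given as well. The transcript closest to Pramel7 among the measured family was Pramel30 (80.1% identical coding bases), and the one closest to Pramel6 was Pramel12 (64.4%).

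The libraries held 20758151 to 31552915 counts. Tnrc6a RNA stood at 132.2 ± 1.31 and 144.5 ± 9.79 CPM (counts scaled to library size, SD, n = 3) in the control and Trim71-/- cells with Cas9. It stood at 3317 ± 120 and 3622 ± 126 CPM in the overexpressing control and Trim71-/- cells. Trim71 RNA was still present in cells labelled Trim71-/-, at 275.2 ± 14.2 CPM against 306.1 ± 14.2 CPM in Cas9 control cells, and at 240.4 ± 9.13 against 264.2 ± 11.9 CPM with Tnrc6a. The part of the gene that was changed is not given, so a count over the whole gene does not check that label. The description of the input material names other cells for 9 of the 12 libraries, so groups were taken from titles and the overexpression tag. Defining markers of stem cells were present, with group means of 709.6 to 1560 CPM for Pou5f1 and 498.2 to 793.9 CPM for Nanog. Nothing says that the wells of a group came from separate lines, so errors measure the spread between wells, which may be technical.

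All 4 genes were weakly expressed in control cells. In the deposited RPKM (reads per kilobase of gene length and library size, which allows levels of different genes to be compared), Pramel18 stood at 0.517 ± 0.115 and Pramel19 at 0.364 ± 0.238 in Cas9 control cells (SD, n = 3). Pramel7 stood at 0.251 ± 0.0331 and Pramel6 at 0.143 ± 0.0300 RPKM. These group means were above 21.2%, 17.6%, 13.8% and 9.18% of all listed genes, respectively. The ranges of Pramel18, Pramel19 and Pramel7 overlapped in turn, while Pramel6 lay below the other 3 genes. In Tnrc6a control cells all ranges were separate, in the order Pramel19, Pramel18, Pramel7 and Pramel6, and Pramel19 and Pramel18 were then above 61.8% and 56.2% of genes. Pramel19 and Pramel18 held places 3 and 4 by RPKM among the 30 family rows there, behind the more abundant Pramel13 and Pramel12.

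**Figure D1:**
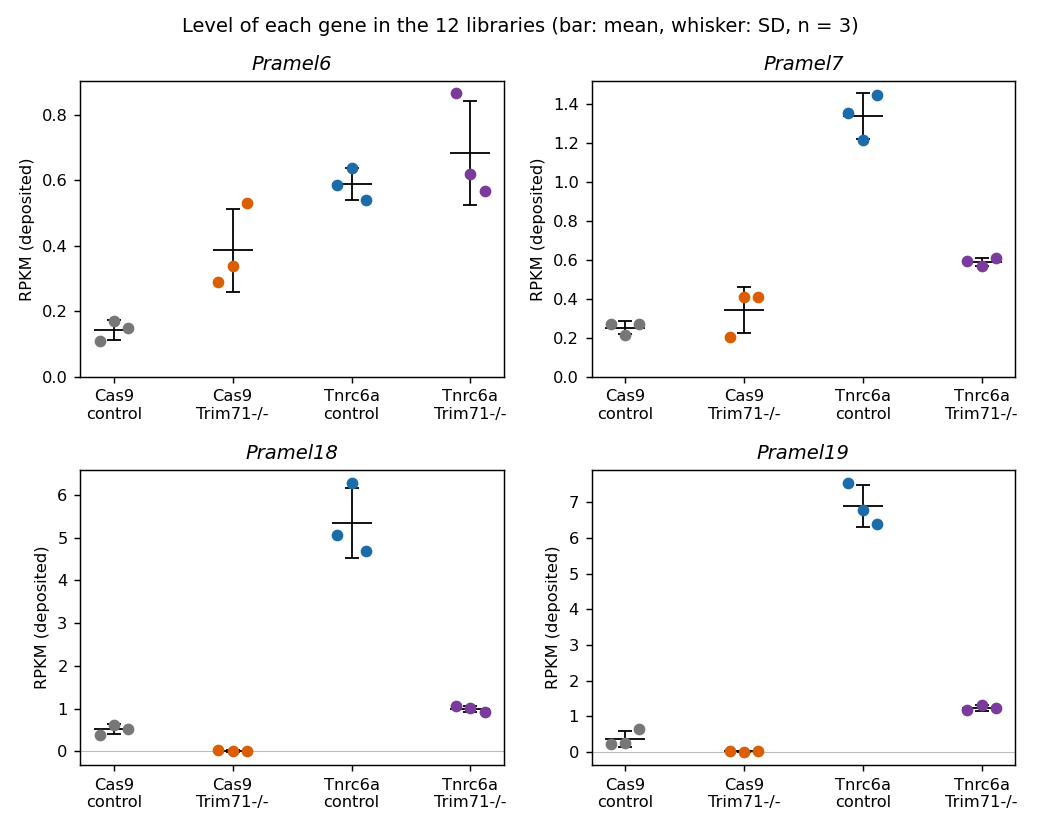
Deposited RPKM of each gene (vertical axis from 0, with its own range per panel) in the 12 libraries by group, with points for libraries, a bar for the mean and a whisker for the SD of 3. Pramel18 and Pramel19 are near 0 in Cas9 Trim71-/- cells and reach 4.69 to 6.27 and 6.39 to 7.54 RPKM in Tnrc6a control cells, while Pramel6 is lowest in Cas9 control cells.

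Pramel18 gave 15, 18 and 20 counts in the Cas9 control libraries and 2, 0 and 0 counts in the Cas9 Trim71-/- libraries. It gave 212, 254 and 206 counts in Tnrc6a control cells and 43, 40 and 34 counts in Tnrc6a Trim71-/- cells. The ranges of the 4 groups did not overlap: the order was Tnrc6a control, Tnrc6a Trim71-/-, Cas9 control, Cas9 Trim71-/-. Summed over the 3 libraries and scaled to effective library size, the level in Cas9 control cells was 28.0 times that in Cas9 Trim71-/- cells (95% exact interval 7.37 to 237, counting error only). With Tnrc6a the control level was 5.32 times the Trim71-/- level (4.36 to 6.53). Tnrc6a control cells had 10.5 times the level of Cas9 control cells (7.92 to 14.1), and Tnrc6a Trim71-/- cells had 55.2 times that of Cas9 Trim71-/- cells (14.9 to 461). The 2 counts of the Cas9 Trim71-/- group came from replicate 1, and the fitted log2 difference from Cas9 control was -4.58 (SE 0.61) with that library and -7.27 without it.

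Pramel19 gave 8, 7 and 24 counts in the Cas9 control libraries and 1, 0 and 1 in the Cas9 Trim71-/- libraries. With Tnrc6a it gave 315, 274 and 280 counts in control cells and 47, 52 and 45 in Trim71-/- cells. Its groups stood in the same order as those of Pramel18, again without overlap, and Cas9 control replicate 3 stood above the other two wells of its group. The control level was 20.6 times the Trim71-/- level with Cas9 (5.33 to 176) and 5.59 times with Tnrc6a (4.68 to 6.71). Tnrc6a control cells had 18.4 times the level of Cas9 control cells (13.4 to 26.1), and the corresponding ratio in Trim71-/- cells was 67.9 (18.5 to 566). Without Cas9 control replicate 3 the fitted log2 difference of Trim71-/- cells with Cas9 moved from -4.13 (SE 0.68) to -3.41. The log2 difference between Tnrc6a and Cas9 control cells moved from 4.20 (SE 0.22) to 4.92 without it.

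Taken as a sum, which does not depend on how reads were divided between the copies, Pramel18 and Pramel19 gave 92 counts in Cas9 control cells, 4 in Cas9 Trim71-/- cells, 1541 in Tnrc6a control cells and 261 in Tnrc6a Trim71-/- cells. The corresponding means were 1.28 ± 0.409, 0.0489 ± 0.0504, 17.8 ± 1.50 and 3.25 ± 0.136 CPM (SD, n = 3). Control cells held 24.3 times the summed level of Trim71-/- cells with Cas9 (9.17 to 91.0) and 5.46 times with Tnrc6a (4.79 to 6.25). Pramel19 supplied 42.4% of the pair's counts in Cas9 control cells (exact binomial interval 32.1 to 53.1) and 56.4% in Tnrc6a control cells (53.9 to 58.9). In Tnrc6a Trim71-/- cells its share was 55.2% (48.9 to 61.3), and with 4 counts the share in Cas9 Trim71-/- cells was 50.0% with an interval of 6.76 to 93.2. In these bulk samples, fewer expressing cells and less RNA per cell cannot be told apart.

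Pramel7, the adaptor that targets UHRF1, showed no such drop in Cas9 Trim71-/- cells. It gave 15, 9 and 15 counts in Cas9 control and 13, 21 and 19 counts in Cas9 Trim71-/- libraries, which overlapped. Tnrc6a control libraries gave 83, 72 and 93 counts, and Tnrc6a Trim71-/- libraries gave 35, 33 and 33. The highest group was Tnrc6a control, followed without overlap by Tnrc6a Trim71-/-, and both lay above the Cas9 groups. The ratio of Trim71-/- to control cells with Cas9 was 1.29, with an interval of 0.835 to 2.00 that includes equal levels. With Tnrc6a the control level was 2.27 times the Trim71-/- level (1.80 to 2.89). Tnrc6a cells had 5.26 times the level of Cas9 cells in the control genotype (3.74 to 7.57) and 1.80 times in Trim71-/- cells (1.28 to 2.56).

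Pramel6, the other gene described downstream of LIF and STAT3, was the one of the 4 genes with a higher level in Cas9 Trim71-/- than in Cas9 control cells without overlap. Counts were 6, 7 and 8 in Cas9 control and 18, 17 and 24 in Cas9 Trim71-/- libraries. They were 35, 37 and 34 in Tnrc6a control and 50, 35 and 30 in Tnrc6a Trim71-/- libraries, and those ranges overlapped as RPKM. Trim71-/- cells with Cas9 had 2.66 times the control level (1.59 to 4.61), and with Tnrc6a the ratio was 1.17 (0.892 to 1.54). Tnrc6a cells had 4.17 times the level of Cas9 cells in the control genotype (2.59 to 7.02) and 1.84 times in Trim71-/- cells (1.33 to 2.56). In Cas9 Trim71-/- cells, where Pramel18 and Pramel19 were near 0, Pramel6 at 0.386 ± 0.128 and Pramel7 at 0.340 ± 0.118 RPKM (SD, n = 3) were the more abundant genes, and their ranges overlapped each other.

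All 4 genes passed the filter on low counts over the 12 libraries, but the filter on the 2 Cas9 groups alone left Pramel19 out. The table lists only genes with at least 46 counts over the 12 libraries. The 6 Cas9 libraries alone gave 80 counts for Pramel6, 92 for Pramel7 and 55 for Pramel18, while Pramel19, with 41, reached that minimum only through the Tnrc6a libraries. In the fit across all genes (edgeR's quasi-likelihood test, Benjamini-Hochberg adjusted p under 0.05), Trim71-/- against control cells with Cas9 called 1 of the 4 genes higher and 2 lower, against 36.1% of all 20486 genes tested. With Tnrc6a it called none higher and 3 lower, against 20.0% higher, 19.0% lower and 39.1% in either direction among all genes. Tnrc6a against Cas9 called 4 of 4 higher in control cells, where 30.4% of all genes were called higher and 63.5% in either direction. In Trim71-/- cells it called 4 of 4 higher, where 32.0% of all genes were called higher and 62.9% in either direction. The difference between the genotype effects with Tnrc6a and with Cas9 called 1 of 4, lower, against 6.93% of all genes in either direction and 2.25% lower. Nothing is read from these counts, since values from the same comparisons chose the genes. In that last comparison 67.5% of the genes called were higher, and with relative log expression factors 55.6% were. The comparisons share groups, so their values are not independent of each other.

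The fitted log2 differences lay side by side as follows, with standard errors. Trim71-/- minus control with Cas9 was 1.41 (0.39) for Pramel6 and 0.38 (0.33) for Pramel7. With Tnrc6a it was 0.22 (0.27) and -1.18 (0.22) for the same genes, and -2.41 (0.18) and -2.48 (0.17) for Pramel18 and Pramel19. The genotype effect was lower with Tnrc6a than with Cas9 by a log2 difference of -1.19 (0.48) for Pramel6 and -1.56 (0.40) for Pramel7. For Pramel18 and Pramel19 the difference had the other sign, 2.17 (0.77) and 1.65 (0.82). Those last values lean on a group with 2 counts per gene, and Pramel18 gave 4.86 without Cas9 Trim71-/- replicate 1. The Pramel19 value also leans on a single control library, since it was 0.93 without Cas9 control replicate 3. The median log2 difference of all genes was between -0.0161 and 0.0213 in the 5 comparisons.

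The table held 26 other family rows, which were taken by name and all tested. The family itself was chosen with earlier results of these data known, so their calls are not independent of that choice. Of the 26 rows, 10 fell in Trim71-/- cells with Cas9 and 22 with Tnrc6a, and none rose in either. The counts of 0 also stood at an unadjusted p under 0.05, in DESeq2 and in limma-voom. With Tnrc6a overexpression 24 rose in control cells and 23 in Trim71-/- cells, and none fell in either, by the same 3 tools and at an unadjusted p. Among all genes, 19.1% and 19.0% were called lower in the genotype comparisons, and 30.4% and 32.0% were called higher with Tnrc6a. All 50-base windows of Pramel36, Pramel37, Pramel49 and Pramel50 were also found in other genes, so rows may share reads and are not independent counts. Fitted on the 2 groups compared alone, 5 instead of 10 fell with Cas9 and 12 instead of 23 rose in Trim71-/- cells; the other 5 and 11 rows were not tested there, since the filter on low counts removed them. Rows that were called and whose libraries did not overlap between the groups made up 34.6% of the 26 for genotype with Cas9, close to 33.6% of all genes. With Tnrc6a they made up 84.6%, against 37.4% of all genes, and for Tnrc6a against Cas9 88.5% and 80.8%, against 60.9% and 59.7%. However, 20 of the 26 rows reached 46 counts only with the Tnrc6a libraries, so their listing favoured a higher level there. Of these, 7 rows reached it only with the Tnrc6a control libraries, so their listing also favoured a lower level in Trim71-/- cells with Tnrc6a. Among the other 19 rows of the 26, 17 fell there. Group sums of 3 counts or fewer were found for 7 of the 26 rows in Cas9 control cells and for 17 in Cas9 Trim71-/- cells, and for none with Tnrc6a.

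The 6 rows that reached the minimum in the Cas9 libraries alone were Pramel13, Pramel12, Pramel1, Pramel14, Pramel30 and Pramel31. Of these, 5 fell in Trim71-/- cells with Cas9, and all 6 fell with Tnrc6a (median log2 differences -1.16 and -1.04). With Tnrc6a overexpression 5 rose in control cells and 4 in Trim71-/- cells (medians 0.78 and 0.89). Pramel12, the second most abundant row, stood at 8.05 ± 0.160 RPKM in Cas9 control, 3.52 ± 0.244 in Cas9 Trim71-/-, 13.9 ± 0.872 in Tnrc6a control and 8.41 ± 0.306 in Tnrc6a Trim71-/- cells (SD, n = 3). Pramel12 fell in Trim71-/- cells, and the control level was 2.27 times the Trim71-/- level with Cas9 (interval 2.11 to 2.43, edgeR adjusted p = 1.97e-18) and 1.65 times with Tnrc6a (1.58 to 1.73, adjusted p = 4.21e-14). Pramel1 fell by 1.14 (SE 0.18) on the log2 scale with Cas9 and by 0.98 (0.14) with Tnrc6a, with edgeR adjusted p of 1.18e-06 and 1.82e-07. Pramel13, the most abundant row with 11.2 ± 0.323 RPKM in Cas9 control cells, differed by -0.17 (0.07) with Cas9, an edgeR adjusted p of 0.0507 that missed the threshold. It fell by 0.35 (0.07) with Tnrc6a (3.46e-05). Reads of Pramel14 and Pramel30 are hard to separate, since 73.5% and 73.8% of their 50-base windows are found in the other.

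Among the called rows with the largest fitted change in Trim71-/- cells with Cas9, Pramel43 gave 8 counts in control and 0 in Trim71-/- cells, at least 2.82-fold lower against a floor of 3 counts over the group. Pramel20 gave 15 against 1 count, a ratio of 15.8 (2.44 to 667), and Pramel28 gave 13 against 1, a ratio of 13.7 (2.06 to 583). Pramel40 gave 10 against 1 count (10.6, 1.50 to 458), Pramel16 gave 22 against 6 (3.87, 1.52 to 11.7) and Pramel31 gave 51 against 16 (3.37, 1.89 to 6.32). Their edgeR adjusted p lay under 0.05 in the fit of all libraries. Only Pramel31 reached the listing minimum in the Cas9 libraries alone. The others passed the filter on low counts only through the Tnrc6a libraries, so their values with Cas9 are a description. With Tnrc6a the counts were larger: Pramel21 gave 86 counts in control and 16 in Trim71-/- cells, Pramel39 gave 93 and 18, and Pramel11 gave 63 and 13. These 3 rows are among the 7 that were listed through the Tnrc6a control libraries, so the values describe them and test nothing. The same holds for the rise with Tnrc6a of rows listed only through Tnrc6a libraries. In control cells Pramel35 gave 0 counts with Cas9 and 36 with Tnrc6a, and Pramel49 gave 2 and 153. In Trim71-/- cells Pramel50 gave 0 and 48 counts and Pramel46 gave 0 and 42.

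By position, the 12 rows of the distal chromosome 4 cluster were called lower 8 times in Trim71-/- cells with Cas9 and 12 times with Tnrc6a. Of the 12 rows on chromosome 5, 2 were called lower with Cas9 and 9 with Tnrc6a. The shares of all genes called lower were 19.1% and 19.0%. The chromosome 5 rows gave 1 to 11 counts each over the 6 Cas9 libraries and missed the listing minimum there. The Cas9 calls therefore cannot separate position from depth. The Tnrc6a calls include Pramel11, Pramel21 and Pramel24 (distal) and Pramel39 and Pramel49 (chromosome 5). Those rows were listed only through the Tnrc6a control libraries, so their listing favoured a lower level in Trim71-/- cells. Both clusters held rows that share most of their 50-base windows with other family genes, so a call on a single row there may rest on reads of its relatives. Pramel3 on chromosome X was called in no comparison, and its level stood at 0.0379 to 0.109 RPKM as group means. Pramel17, another family gene beside Pramel18 and Pramel19, gave 14 and 5 counts in control and Trim71-/- cells with Cas9 and 312 and 71 counts with Tnrc6a. Pramel17 fell by 2.01 (SE 0.28) on the log2 scale in Trim71-/- cells with Tnrc6a (edgeR adjusted p = 1.5e-07), and with Cas9 the difference of -1.49 (0.81) was not called (0.153). With 19 counts over the 6 Cas9 libraries, it was listed only through the Tnrc6a libraries, so no test is attached to its higher level there.

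**Figure D2:**
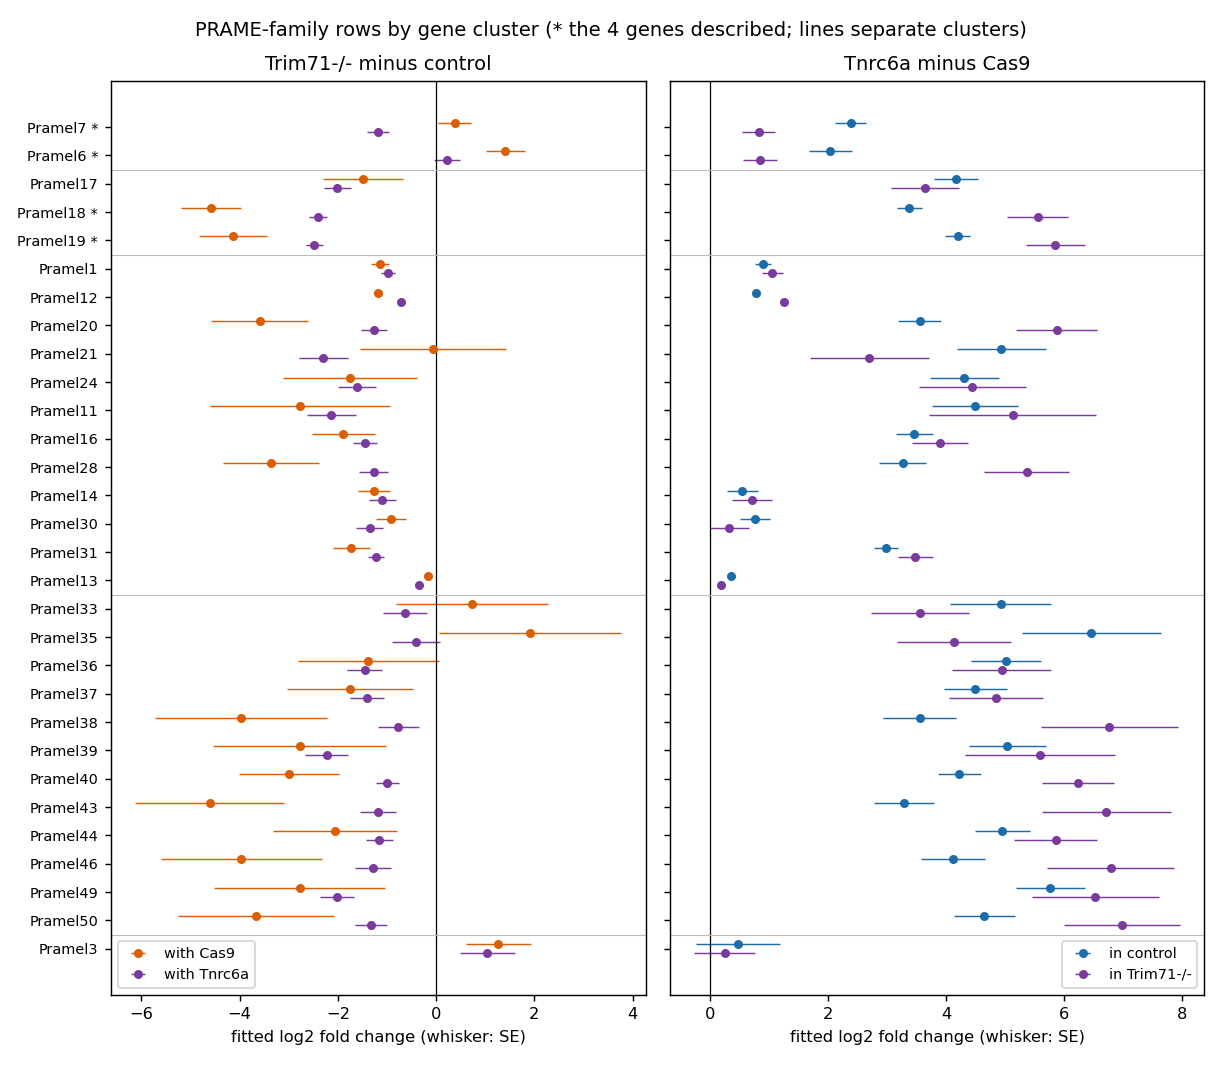
Fitted log2 fold changes (horizontal axes, whiskers SE) of the 30 family rows, grouped by gene cluster, for Trim71-/- minus control cells on the left and Tnrc6a minus Cas9 cells on the right. Pramel18 and Pramel19 lie at -4.58 and -4.13 with Cas9, on the side where the 10 called rows of the other 26 lie, while Pramel6 at 1.41 lies on the other side; values of rows with 0 counts in a group depend on the fit and are no bounds.

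The genes around the 2 pairs were described next. Beside Pramel18, the annotated protein-coding gene C130073F10Rik, 15331 bases before it on the minus strand, fell by 1.25 (SE 0.25) with Cas9 and by 1.42 (0.19) with Tnrc6a in Trim71-/- cells (edgeR adjusted p = 0.000107 and 3.14e-08). It rose by 1.31 (0.19) and 1.14 (0.25) with Tnrc6a in control and Trim71-/- cells (7.76e-08 and 0.000139). Lepr, the leptin receptor, stood 93768 bases before Pramel18. Lepr rose with Tnrc6a by 1.34 (0.27) and 1.45 (0.27) in control and Trim71-/- cells, with adjusted p of 3e-05 and 1.33e-05, and was not called for genotype. Gm12790, 24269 bases after Pramel19, gave 8 and 5 counts with Cas9 and 111 and 59 with Tnrc6a in control and Trim71-/- cells. It too was listed only through the Tnrc6a libraries, and it was not called for genotype. Pde4b, a phosphodiesterase gene 144359 bases after Pramel19, rose by 1.29 (0.45) in Trim71-/- cells with Tnrc6a (adjusted p = 0.019) and was not called in the other 3 comparisons. Leprot, 249756 bases before Pramel18, fell with Tnrc6a by 0.24 (0.06) in both genotypes, with adjusted p of 0.000328 and 0.000346.

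On chromosome 2 the nearest measured gene after Pramel6 was the olfactory receptor Or5w22, 20923 bases away, which was not called in any comparison. On the other side, Tnks1bp1 stood 2416038 bases before Pramel7, and the 103 protein-coding genes annotated in between had no row in the table used here. Tnks1bp1 rose with Tnrc6a by 0.45 (SE 0.06) and 0.49 (0.06), with edgeR adjusted p of 6.83e-09 and 8.4e-10, and was not called for genotype. Ssrp1, a histone chaperone subunit gene 2441977 bases before Pramel7, rose in Trim71-/- cells by 0.27 (0.04) with Cas9 and by 0.17 (0.04) with Tnrc6a (9.8e-08 and 0.000241). Ssrp1 fell with Tnrc6a by 0.19 (0.04) and 0.29 (0.04), with adjusted p of 2.92e-05 and 8.14e-09. Slc43a3, a purine base transporter farther out, rose with Tnrc6a by 2.32 (0.10) and 2.14 (0.12) and fell in Trim71-/- cells by 0.77 (0.14) and 0.95 (0.09), each with an edgeR adjusted p of at most 2.54e-05.

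**Figure D3:**
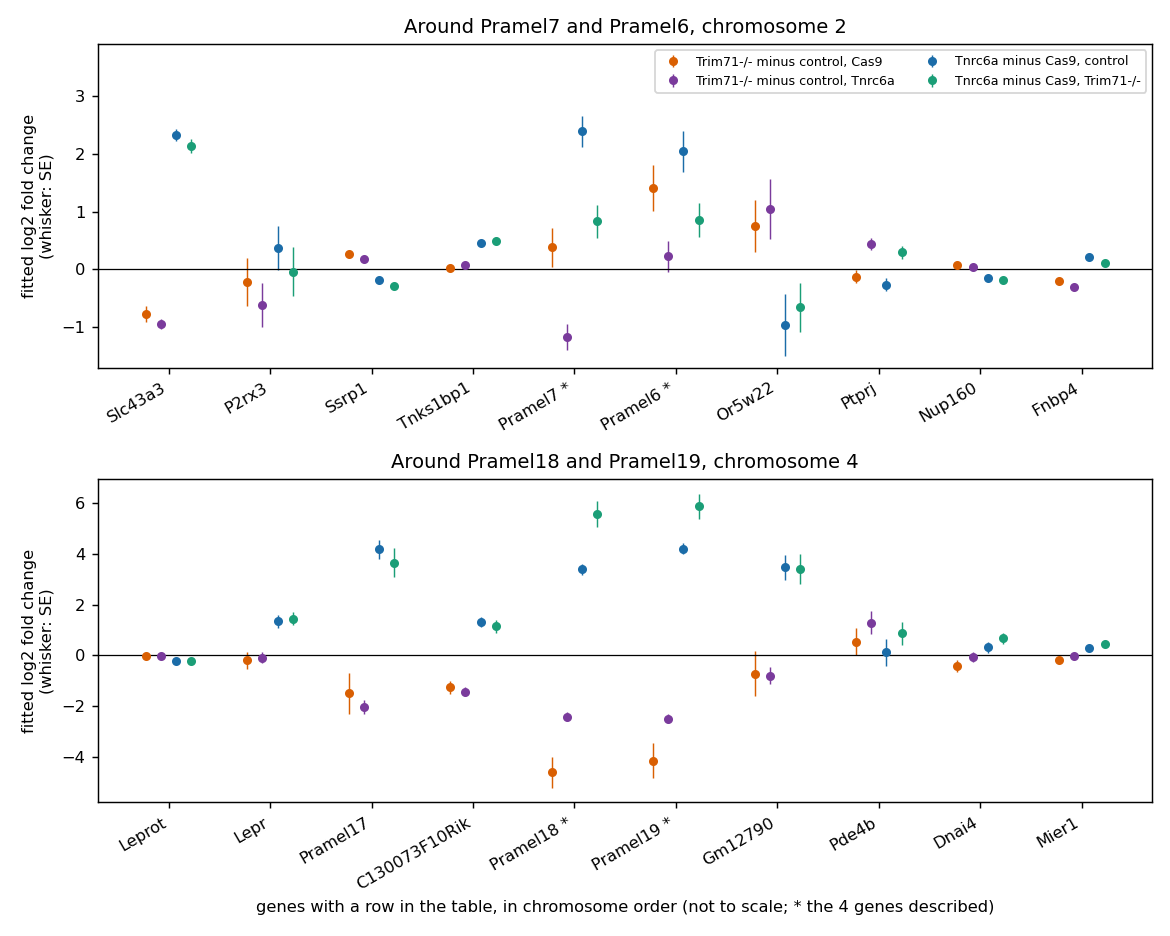
Fitted log2 fold changes (vertical axes, whiskers SE) of the 4 genes and of the measured protein-coding genes around them in chromosome order, in 4 comparisons; horizontal spacing is not to scale. On chromosome 4, Pramel17 and C130073F10Rik lie below 0 for genotype and above 0 for Tnrc6a as Pramel18 and Pramel19 do, while Leprot stays within 0.24 of 0.

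Lists of related genes were counted next, each to be read against all genes tested. Of these, 17.1% were called higher and 19.1% lower in Trim71-/- cells with Cas9, and 20.0% and 19.0% with Tnrc6a. With Tnrc6a overexpression 30.4% were called higher and 33.1% lower in control cells, and 32.0% and 30.9% in Trim71-/- cells.

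The proteins with which PRAMEL7 works were read from a list of 14 genes for its ubiquitin ligase and for DNA methylation. With Tnrc6a 12 of the 14 fell in control cells and 14 of 14 fell in Trim71-/- cells, where 33.1% and 30.9% of all genes were called lower, and the list medians were -0.46 and -0.45. Uhrf1, the target of the ligase, fell by 0.68 (SE 0.04) and 0.70 (0.04), from 358.5 ± 12.9 to 223.3 ± 1.36 CPM in control cells (edgeR adjusted p = 1.86e-20 and 1.09e-20). Tet2, which oxidises methylcytosine, fell by 1.01 (0.04) and 0.93 (0.04), with adjusted p of 1.81e-23 and 1.36e-22. In Trim71-/- cells 4 rose and 6 fell with Cas9, and 2 rose and 6 fell with Tnrc6a (medians -0.09 and -0.11), against 17.1% higher and 19.1% lower, and 20.0% and 19.0%, of all genes. Dnmt3l, the cofactor of de novo methylation, fell by 1.54 (0.04) and 1.60 (0.04), with adjusted p of 2.46e-29 and 4.44e-30, and Tet2 rose by 0.76 (0.04) and 0.84 (0.04). Uhrf1 itself stood at 358.6 ± 8.62 CPM in Cas9 Trim71-/- cells. Protein levels were not measured.

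Of the 17 genes listed for LIF and STAT3 signalling, 5 rose and 6 fell in Trim71-/- cells with Cas9, and 7 rose and 7 fell with Tnrc6a (medians 0.02 and 0.01). Of all genes, 17.1% and 20.0% were called higher and 19.1% and 19.0% lower. With Tnrc6a overexpression 6 rose and 10 fell in control cells (median -0.30), and 5 rose and 9 fell in Trim71-/- cells (median -0.13), against 30.4% and 32.0% higher and 33.1% and 30.9% lower among all genes. Pim1, a kinase gene induced by STAT3, fell by 0.50 (SE 0.05) and 0.75 (0.04) in Trim71-/- cells with Cas9 and Tnrc6a and rose by 1.05 (0.04) with Tnrc6a in control cells. The edgeR adjusted p were 1.97e-12, 4.13e-19 and 2.11e-24. Lif, the cytokine itself, rose by 1.33 (0.10) and 1.71 (0.10) with Tnrc6a, whereas Gbx2, another STAT3 target, fell by 1.91 (0.06) and 1.63 (0.06). Klf4 rose in Trim71-/- cells by 0.36 (0.04) with Cas9 and by 0.62 (0.04) with Tnrc6a (9.05e-10 and 8.24e-17).

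Of the 15 naive pluripotency genes, 9 rose and 2 fell in Trim71-/- cells with Cas9, and 12 rose and 3 fell with Tnrc6a, where 17.1% and 20.0% of all genes were higher and 19.1% and 19.0% lower. With Tnrc6a 13 fell and 2 rose in control cells, and 11 fell and 2 rose in Trim71-/- cells, against 33.1% and 30.9% lower among all genes. Zfp42 (Rex1) rose in Trim71-/- cells by 0.84 (SE 0.03) and 1.21 (0.03), with edgeR adjusted p of 8.5e-24 and 1.32e-29, and Pou5f1 fell with Tnrc6a by 1.05 (0.04) and 1.00 (0.04). Of 18 listed regulators of germline and 2-cell genes, most of them repressors but with the activators Dppa2 and Dppa4, 1 rose and 7 fell with Cas9 and 3 rose and 5 fell with Tnrc6a in Trim71-/- cells. The share that rose was below or close to the 17.1% and 20.0% of all genes. The share that fell was above the 19.1% and 19.0% of all genes. With Tnrc6a overexpression 2 rose in both genotypes, against 30.4% and 32.0% of all genes. In control cells 10 fell and in Trim71-/- cells 9, a larger share than the 33.1% and 30.9% of all genes. Dppa2 and Dppa4 were among the rows that fell in all 4 comparisons. Dppa2 fell by 0.57 (0.04) and 0.80 (0.04) in Trim71-/- cells (6.98e-15 and 1.54e-19).

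Markers of other cell states were then set beside the 4 genes. Of 21 genes of the 2-cell-like state, 18 fell in Trim71-/- cells with Cas9 and 21 of 21 fell with Tnrc6a, and 21 of 21 rose with Tnrc6a in each genotype. Of all genes, 19.1% and 19.0% were lower and 30.4% and 32.0% higher, and 7 of the 21 reached 46 counts only with the Tnrc6a libraries. Of these, 2 reached it only with the Tnrc6a control libraries, so their listing favoured a lower level in Trim71-/- cells with Tnrc6a. The other 19 rows all fell there. The summed level of the 21 genes ranged from 43.4 to 47.0 CPM in Cas9 control libraries, from 4.24 to 5.74 in Cas9 Trim71-/-, from 968.5 to 1013 in Tnrc6a control and from 366.0 to 385.3 in Tnrc6a Trim71-/- libraries. Zscan4d fell by 3.69 (SE 0.19) in Trim71-/- cells with Cas9 and rose by 7.06 (0.12) with Tnrc6a in Trim71-/- cells (edgeR adjusted p = 3.78e-20 and 1.13e-38). The groups of this sum stood in the same order as those of Pramel18 and Pramel19, with no overlap. Several family rows are themselves known from this state, so the list is no outside reference for them.

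All 12 primitive endoderm markers fell in Trim71-/- cells with Cas9 and with Tnrc6a, and with Tnrc6a 12 rose in control cells while 9 rose and 1 fell in Trim71-/- cells. The shares of all genes were 19.1% and 19.0% lower for genotype and 30.4% and 32.0% higher with Tnrc6a, also for the trophoblast and fibroblast lists. Their sum ranged from 482.1 to 486.1 CPM in Cas9 control, from 136.2 to 143.2 in Cas9 Trim71-/-, from 996.1 to 1124 in Tnrc6a control and from 254.7 to 279.7 CPM in Tnrc6a Trim71-/- libraries. Gata6 fell by 3.93 (SE 0.14) and 2.79 (0.09) in Trim71-/- cells (edgeR adjusted p = 2.45e-25 and 4.03e-27). Of 8 trophoblast markers with a row, 1 rose and 4 fell with Cas9 and 1 rose and 7 fell with Tnrc6a in Trim71-/- cells, and with Tnrc6a 8 rose in control cells and 6 in Trim71-/- cells. Their sum ranged from 53.8 to 55.3, from 49.6 to 53.2, from 254.6 to 289.3 and from 148.5 to 151.2 CPM in the same 4 groups. Like the sum of 2-cell-like genes, this sum had the group order of Pramel18 and Pramel19 with no overlap. The 5 fibroblast markers with a row summed to 19.2 to 25.0, 22.7 to 25.3, 34.2 to 38.9 and 35.4 to 41.1 CPM, with 1 up and 1 down, 2 up, 4 up and 5 up in the 4 comparisons. Of all genes, 17.1% and 20.0% were called higher for genotype with Cas9 and with Tnrc6a. No listed marker with a row was at 0 over a group, and Elf5, Col3a1, Twist2 and Prrx1 were not analysed here. The part of these cell states in the levels of the 4 genes was not tested.

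**Figure D4:**
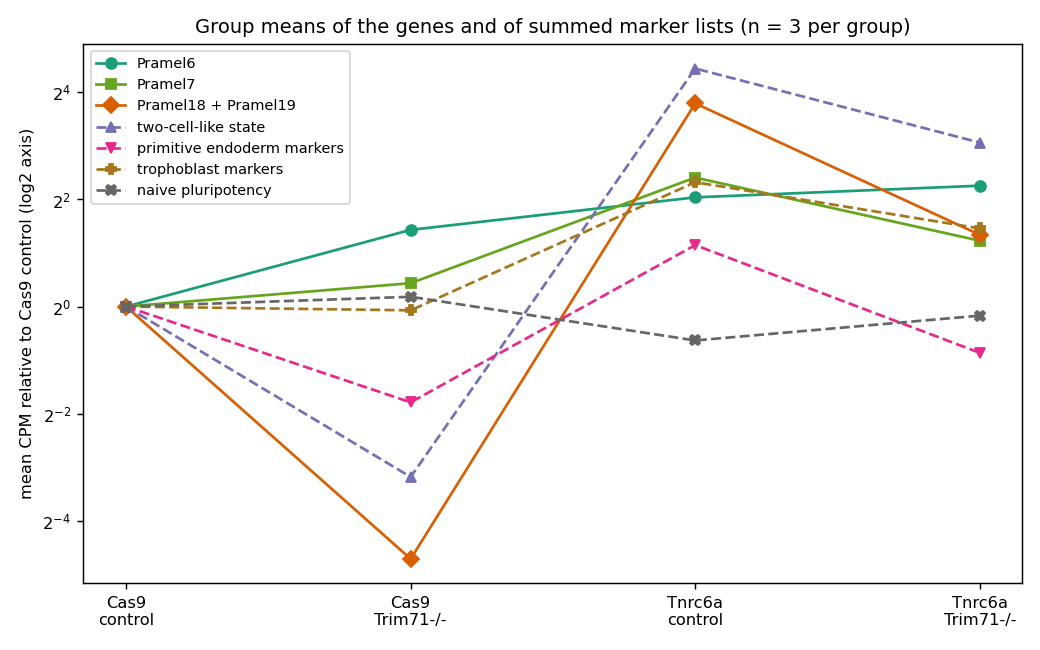
Group means (n = 3) of Pramel6, Pramel7, the sum of Pramel18 and Pramel19, and 4 summed marker lists in CPM, each divided by its own mean in Cas9 control cells, on a log2 axis; lines join the groups only to guide the eye. The pair falls from 1.28 to 0.0489 CPM in Cas9 Trim71-/- cells and reaches 17.8 CPM in Tnrc6a control cells, the sum of 2-cell-like genes goes from 45.2 to 4.98 and 986.2 CPM, and the mean of Pramel6 is highest in Tnrc6a Trim71-/- cells, where its range overlaps that of Tnrc6a control cells.

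Over the 12 libraries, log2(CPM + 0.5) of Pramel18 and Pramel19 correlated with a Pearson r of 0.98, which shared reads can raise. Pramel7 had r of 0.92 with Pramel19 and 0.87 with Pramel18, and Pramel6 had r of 0.71 with Pramel7, 0.55 with Pramel19 and 0.46 with Pramel18. These values describe libraries that fall into 4 groups and share their depth, and no p-value is attached. Among genes of at least 1 CPM on average, those most like Pramel18 were Pim1 (r = 0.99), Fbxo15 (0.99) and Cidea (0.99), and those most like Pramel19 were Myh9 (0.99), Aurka (0.99) and Kdm4dl (0.99). None of the 3 genes of Pramel18 remained among its nearest 3 with a pseudocount of 0.1 or of 2, and 0 and 1 of those of Pramel19 did. Pik3r1 (0.98), Eif4a3l2 (0.97) and Cdc42bpb (0.97) were most like Pramel7, of which 2 remained at either pseudocount. Abcf3 (0.97), Kcp (0.97) and Capg (0.97) were most like Pramel6, and all 3 remained. Abcf3 followed the order of Pramel6, from 49.7 ± 0.314 CPM in Cas9 control to 61.5 ± 2.38, 69.0 ± 0.836 and 72.4 ± 2.86 CPM in Cas9 Trim71-/-, Tnrc6a control and Tnrc6a Trim71-/- cells (SD, n = 3). Cidea, a lipid-droplet protein gene, stood at 3.96 ± 0.0172, 1.09 ± 0.134, 20.5 ± 0.508 and 5.10 ± 0.474 CPM in the same groups.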

How the data were processed

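Counts per gene of 12 libraries (4 groups of 3, from titles and the overexpression tag) were used as the authors deposited them, without normalization. RPKM values were those the authors deposited, per gene length and library size. Per the submitters' processing notes, bcl2fastq 2.20 and STAR 2.7.3a were used with GRCm38/mm10. Coordinates and sequences came from GENCODE M21.

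In R 4.3.3, edgeR 4.0.16 (TMM factors, filterByExpr by group, robust glmQLFit, group means) modelled the 12 libraries jointly, with 20486 genes after filtering. Tests were two-sided, with Benjamini-Hochberg adjustment over all genes at 0.05. SE is the size of the log2 difference divided by the root of F. Ratios are group-summed counts over effective sizes with exact 95% intervals, and floors are 3 counts over a group. Both cover counting error only, as no molecular identifiers are recorded. The pipeline was tested on simulated data.

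The members and lists were chosen with earlier results of these data known. Named were the 4 genes, the largest called changes (6 family rows, 4 genes per list) with the 3 most abundant family rows, 3 most correlated genes and 4 measured neighbours per side, and Trim71 and Tnrc6a. Examples from these are printed. Alternatives were 2 other normalizations, 2 other filters, DESeq2 1.42.0, limma-voom (limma 3.58.1), a replicate block, 2-group fits, other pseudocounts and each library left out. Replicate numbers did not pair libraries.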

Additional observations from a re-analysis of the deposited data

Results flagged for a closer look

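Pramel12 differed in its genotype effect between Cas9 and Tnrc6a cells. It was the 1 row of the 26 other family rows called for this difference. Of all genes, 6.93% were called in either direction and 4.68% higher, so the count says nothing about the family. On the log2 scale Pramel12 fell more in Trim71-/- cells with Cas9 than with Tnrc6a. The interaction term of edgeR's quasi-likelihood fit was 0.46 (SE 0.09, adjusted p = 0.000464), with all 6 libraries of each comparison separated by genotype.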

How the results depend on the processing

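Of 704 values recomputed under the alternatives, 671 moved by less than 1 SD or 1.5 times, 33 moved by more and 0 changed sign. Fitted on the 2 groups compared alone, 5 instead of 10 other family rows fell in Trim71-/- cells with Cas9, and 12 instead of 23 rose with Tnrc6a in Trim71-/- cells. All 5 and all 11 of these rows were left out by the filter on low counts in those 2 groups, and none was tested and lost its call. With each library left out, the number of other family rows that rose in Trim71-/- cells with Tnrc6a was 0 to 1, the 1 appearing without Tnrc6a control replicate 1, and the cause was not tested. For the members, 24 of 395 fold changes moved, all for Pramel6, Pramel18 or Pramel19. Pramel19 had no fold change from the 2 Cas9 groups fitted alone, since the filter on low counts left it out there. Replicate numbers do not mark a shared batch, and same-numbered libraries of different groups correlated at -0.233 to 0.156 in their deviations. With a replicate block 10 and 22 other family rows fell and 24 and 23 rose, and the genes called went from 7403 to 7266, from 8005 to 7851, from 13007 to 12901, from 12884 to 12789 and, for the interaction, from 1419 to 1335. Depth limits Pramel18, Pramel19 and 17 of the 26 other rows in Cas9 Trim71-/- cells, where a group gave 3 counts or fewer.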

Other observations

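Outside the family rule, 2 rows named as PRAME family member 8-like, both on chromosome 5, were left out of all counts above. LOC108168684 gave 10, 1, 456 and 195 counts and LOC100862180 gave 5, 0, 222 and 95 counts in Cas9 control, Cas9 Trim71-/-, Tnrc6a control and Tnrc6a Trim71-/- cells.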
